A study of Mus musculus with 32 samples.

Results

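Cytosolic ribosomal protein genes were taken as the gene symbols of the feature list that match ^Rp[ls][0-9]+[axyl]?[0-9]?$, without the ribosomal protein S6 kinase genes. The rule gave 79 of 32285 genes, 31 for the small and 48 for the large ribosomal subunit. It used no measured value, but the members were chosen with earlier results of these data known. The genes were followed in 32 single-cell RNA sequencing libraries of mouse dorsal telencephalon, the part of the embryonic forebrain that becomes cortex, taken without its medial wall. Each library came from 1 C57BL/6J embryo, wild type (WT) or Chd8+/- (het), at embryonic day (E) 12.5 (E12.5), E14.5, E16.0 or E17.5. Every group of genotype and stage had 4 libraries, named M1 and M2 (males) and F1 and F2 (females) after the sex and the replicate number, and each het embryo had a WT partner of its own litter and sex. The Chd8+/- embryos lack 1 working copy of Chd8, a chromatin remodeller, in all their cells, and the kind of allele is not given in the sources used here. The study asks how partial loss of Chd8 changes gene expression in the developing cortex, and the stages give the course of each gene over the period in which cortical neurons are made.

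Ribosomal proteins assemble with ribosomal RNA into the small subunit, which reads the mRNA, and the large subunit, which joins the amino acids. Most of their mRNAs begin with a cytosine followed by an unbroken stretch of pyrimidines, the terminal oligopyrimidine motif, through which the growth-regulating mTOR pathway and the protein Larp1 control their translation. In the developing cortex, radial glia, which express Sox2, divide at the ventricle and give rise to intermediate progenitors, which express Eomes (Tbr2), and to excitatory neurons, which express Neurod6. Ribosome production is known to be high in dividing progenitors and to fall as cells differentiate.

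To show where transcription of these genes is annotated to begin, windows of 30 bases around the RefSeq start site (15 bases before it and 15 from it onward, build GRCm38.p6, read 5′ to 3′ on the gene's strand) were read for the genes that the results turn on. Capitals mark a run of at least 5 pyrimidines that begins with C at the annotated start. The annotated start was not measured in these libraries. Rps2, Rpl22l1, Rps27l, Rpl7l1 and Rpl14 fell among the most from E12.5 to E17.5, Rps6, Rpl38 and Rpl15 did not pass that test, and Rpl22 and Rps27 are shown as the partners of Rpl22l1 and Rps27l.
Rps2 (chr17:24720048-24720077, plus strand): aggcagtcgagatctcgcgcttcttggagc
Rpl22l1 (chr3:28805493-28805522, plus strand): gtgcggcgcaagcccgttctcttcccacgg
Rps27l (chr9:66946071-66946100, plus strand): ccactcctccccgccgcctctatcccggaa
Rpl7l1 (chr17:46782642-46782671, minus strand): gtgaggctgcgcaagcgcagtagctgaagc
Rpl14 (chr9:120571502-120571531, plus strand): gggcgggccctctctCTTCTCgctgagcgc
Rpl22 (chr4:152325711-152325740, plus strand): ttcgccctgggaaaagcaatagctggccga
Rps27 (chr3:90213634-90213663, minus strand): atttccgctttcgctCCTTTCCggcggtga
Rps6 (chr4:86857353-86857382, minus strand): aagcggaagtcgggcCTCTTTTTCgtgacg
Rpl38 (chr11:114668565-114668594, plus strand): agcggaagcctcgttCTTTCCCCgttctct
Rpl15 (chr14:18270972-18271001, minus strand): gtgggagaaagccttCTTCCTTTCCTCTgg

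The RefSeq table held 60 of the 79 genes, and 11 of the 60 (18.3%) had such a run exactly at the annotated start, against 2.51% of all 32851 starts in the table. A cytosine was the base at the start in 33.3% of the ribosomal protein genes and in 16.3% of all starts. In the 300 bases around the start (250 before, 50 after), the ETS motif CCGGAAG, searched on both strands, was present in 38.3% of the 60 genes and 8.86% of all starts. On the same count, the GC box GGGCGG was present in 58.3% against 35.7%, the YY1 motif AAGATGGC in 8.33% against 2.75%, and the TATA box TATAAA in 8.33% against 13.6%. The 11 genes with the run had a median log2 fold change of −0.37 between E12.5 and E17.5 in WT, and the 47 without it that were tested had a median of −0.52. At the annotated start the windows of Rpl22l1, Rps27l and Rpl22 had no run, and those of Rps27 and of Rpl14, which fell, had one. In Rpl22l1 and Rps27l a stretch of pyrimidines begins at the base after the annotated start, so a small shift of the start would change the reading. The genes shown were chosen by their change, and a link between the run and the fall was not tested.

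Cells with at least 1000 unique molecular identifiers (UMIs, each standing for 1 captured mRNA molecule) and 500 genes were kept, in all 138226, with 2399 to 6951 cells and 13721696 to 60605997 UMIs per library. The median depth per cell, taken over libraries, was 9252 UMIs at E12.5 and 4648.5 UMIs at E17.5. At E12.5 the het libraries were shallower than their WT partners in 3 of 4 pairs, with library medians of 4090.5 to 10538 UMIs per cell against 8578 to 10475.5 in WT. Chd8 was lower in het than in WT in 15 of 16 pairs, all but E17.5 F1, and the dorsal telencephalic gene Emx1 was present in every library at 73.5 to 281 CPM (UMIs of the gene per 1000000 UMIs of the library). Between WT E12.5 and WT E17.5, the summed level of 8 interneuron markers went from 2.48–35.1 to 102–335 CPM (8 of 8 higher by the test used below), that of 8 microglia markers from 15.3–28.5 to 40.2–187 (7 of 8 higher) and that of 6 meningeal markers from 90.6–163 to 6.07–13.8 (6 of 6 lower). The 8 erythroid markers, mostly globins, gave 5371 to 14210 and 2488 to 15287 CPM. The part of these cells in the results was not tested, and in the summed counts fewer cells of a type and less RNA per cell cannot be told apart. Library codes that the labels give without explanation divide each stage, and stage and code cannot be told apart.

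In WT, ribosomal protein mRNAs took a larger share of the mRNA of the E12.5 cortex than of any later stage. As a share of all UMIs of a library, the 79 genes gave 20.5%, 20.7%, 20.5% and 21.9% in the WT libraries M1, M2, F1 and F2 at E12.5. In the same order, the WT libraries of E14.5 gave 15.4%, 16.2%, 19.7% and 18.9%, those of E16.0 15.2%, 14.3%, 16.5% and 17.6%, and those of E17.5 16.2%, 18.3%, 17.6% and 17.9%. Each E12.5 library thus lay above each of the 12 later WT libraries. In het the stages overlapped: the E12.5 libraries gave 21.6%, 18.3%, 19.4% and 22.1% and the later ones 14.05% to 19.4%, with het E12.5 M2 below het E14.5 F1 and F2 and het E17.5 M2. The mean share was 20.9% ± 0.64 (SD, n = 4) at E12.5 against 17.47% ± 0.92 (SD, n = 4) at E17.5, a difference of −3.43 percentage points (two-sided exact permutation test, p = 0.0286, the smallest p that 4 against 4 libraries allow, and 0.114 after Benjamini-Hochberg adjustment over 16 comparisons). E14.5 had a mean of 17.6% ± 2.07 and E16.0 one of 15.9% ± 1.45, and the step of +1.55 points from E16.0 to E17.5 was not larger than the spread between libraries (exact permutation p = 0.171). With both genotypes joined, an alternative chosen after the data were seen, the difference between E17.5 and E12.5 was −3.52 points. With stage labels exchanged separately in WT and het, which counts litter partners as independent, its adjusted p was 0.00653 (exact permutation test over 4900 arrangements). With each pair moved together it was 0.114 (exact permutation test over 70 arrangements, p = 0.0286 before adjustment, the smallest possible). The nuclear RNA Malat1 moved over the stages as well, from 6255–7501 CPM in WT of E12.5 to 11842–13689, 17189–21059 and 14563–30595 CPM at E14.5, E16.0 and E17.5, and its part in the fall of the share was not tested.

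**Figure D1:**
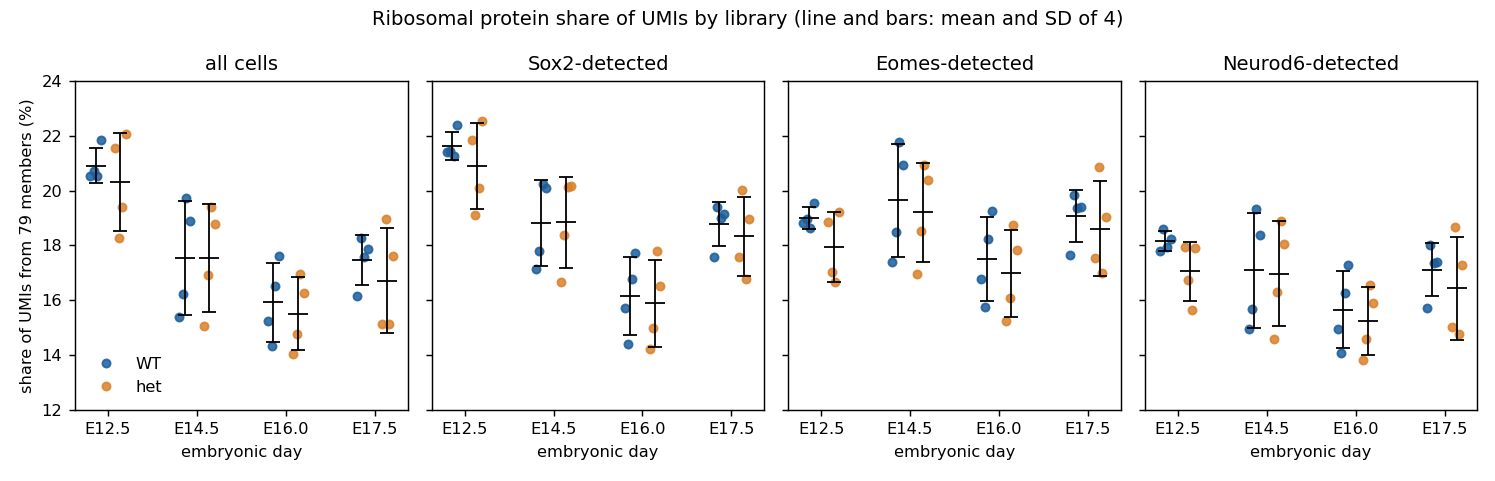
Share of all UMIs that came from the 79 ribosomal protein genes (vertical axis, percent) by embryonic day (horizontal axis), in all cells and in cells with a UMI of Sox2, Eomes or Neurod6; each point is a library, lines and bars are the mean and SD of 4. In all cells the 4 WT libraries of E12.5 lie at 20.5% to 21.9%, above every later WT library, while the Eomes-detected cells start at 19.0% and end at 19.1%.

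At the 3 later stages the share differed with the library code. At E12.5 the WT library of code c15 gave 20.7%, inside the c10 range of 20.5% to 21.9%. The het library of code c15 gave 18.3%, below the c10 range of 19.4% to 22.1%. At E14.5 the 4 libraries with codes starting rm, all male, had shares of 15.1% to 16.9%, and the 4 female libraries, under other codes, 18.8% to 19.7%. At E16.0 the male libraries (code c6) gave 14.05% to 15.2% and the female libraries (code c7) 16.3% to 17.6%. At E17.5 the 4 libraries with codes starting p, of both sexes, gave 15.1% to 17.6% and the others 17.6% to 19.0%. The p libraries also had more Malat1, 23037 to 35120 against 14563 to 15731 CPM, and more of the summed immediate early and stress genes, 813 to 1243 against 396 to 465. Cell markers moved with code as well. The summed excitatory neuron markers gave 4635 to 5074 CPM in the p libraries against 3675 to 4254, and radial glia markers 2249 to 2823 against 3161 to 3504. At E14.5 the excitatory neuron markers gave 4791 to 6194 CPM in the rm libraries against 3236 to 4241. The part of cell content in the differences between codes was not tested. Sex and code cannot be told apart at E14.5 and E16.0. Without the p libraries the WT difference between E17.5 and E12.5 was −2.83 points (exact permutation p = 0.133; 4 against 2 libraries cannot pass).

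Sox2, Eomes and Neurod6 were used to mark cells near the radial glia, intermediate progenitor and neuron states, a cell counting as detected with at least 1 UMI. From E12.5 to E17.5 the share of detected cells went from 66.3% to 19.05% for Sox2, from 27.1% to 79.001% for Neurod6 and from 20.6% to 18.1% for Eomes. In cells with at least 5 UMIs of microglia or of endothelial and mural markers, which should lack all of them, detection over all stages was 11.1% for Sox2, 5.57% for Eomes and 17.3% for Neurod6. It moved with stage: for Sox2 it was 21.2% at E12.5 and 4.10% to 5.56% later, for Neurod6 9.78% and then 16.7% to 25.2%, and for Eomes 5.54% and then 3.68% to 9.52%. The median over libraries was 5802 UMIs in all cells and 7584 UMIs in this background. A cell could be in several sets.

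The course of the share was then followed in each set, and the sets share libraries and cells, so their courses are given side by side with no test of the difference. In Sox2-detected WT cells the means of the successive stages were 21.6% ± 0.52, 18.8% ± 1.58, 16.2% ± 1.42 and 18.8% ± 0.82 (SD, n = 4 each). The E12.5 and E17.5 libraries did not overlap, with a difference of −2.86 points (exact permutation p = 0.0286, adjusted p = 0.114). With both genotypes joined as above, the steps were −2.44, −2.81 and +2.53 points. Their adjusted p was 0.0105, 0.0109 and 0.0105 when litter partners counted as independent, and 0.114, 0.229 and 0.114 when each pair moved together (exact permutation tests). In Eomes-detected cells the first stage had 19.0% ± 0.39 and the last 19.1% ± 0.96, a difference of +0.07 points (exact permutation p = 0.971). In Neurod6-detected cells these were 18.2% ± 0.36 and 17.1% ± 0.97, a difference of −1.03 points that did not pass (exact permutation p = 0.0857, adjusted p = 0.196). The sign of that difference turned with the definition of the set: it was +0.30 points with at least 2 UMIs of Neurod6 and +0.72 points in cells without Sox2 or Eomes.

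Cells with UMIs of only 1 of Sox2, Eomes and Neurod6 were therefore compared, so that no cell counted more than once. Averaged over the 16 WT libraries, ribosomal protein mRNAs took 18.6% of UMIs in Sox2-only cells, 20.6% in Eomes-only cells and 15.8% in Neurod6-only cells. The Sox2-only share exceeded the Neurod6-only share in 16 of 16 libraries, by 2.82 points (exact permutation test by sign flips, adjusted p = 5e-05 over 3 comparisons). The Eomes-only share exceeded the Neurod6-only share by 4.87 points, also in 16 of 16 libraries. Eomes-only cells were 8.14% of the Eomes-detected cells, so they stand for a small part of them. Over both genotypes they numbered 2585 of 138226 cells, a smaller share than the 5.57% of background cells with a UMI of Eomes. The part of background detection in this set was not tested.

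The gap between Sox2-only and Neurod6-only cells was widest at E12.5. It averaged 6.27 ± 0.36 points (SD, n = 4) there, and 2.41 ± 0.60, 0.63 ± 0.33 and 1.98 ± 0.42 points in the 3 later stages. From E12.5 to E17.5 it narrowed by 4.28 points (exact permutation p = 0.0286, the smallest possible). Without the 2 WT libraries of code p at E17.5 the narrowing was −4.44 points (exact permutation p = 0.133, when 4 and 2 libraries allow none below 0.05). Over both genotypes, Neurod6-only cells were 3423 of 39101 at E12.5, a smaller share than the 9.78% of background cells with a UMI of Neurod6. At E17.5 they were 16606 of 27620, against 21.6% in the background. The part of background detection in the gap and its narrowing was not tested. Sox2-only cells were above Eomes-only cells in 4 of 4 WT libraries at E12.5, by 2.18 points, and in none of the 12 later libraries, where the stage means of Sox2-only minus Eomes-only were −2.56, −4.30 and −3.495 points. Among Sox2-detected WT cells, those with a UMI of the division markers Mki67 or Top2a had a share 1.81 points below the other Sox2-detected cells, lower in 16 of 16 libraries (exact permutation test by sign flips, p = 3e-05, the smallest that 16 libraries allow). Background detection of Mki67 and Top2a is not given here.

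**Figure D2:**
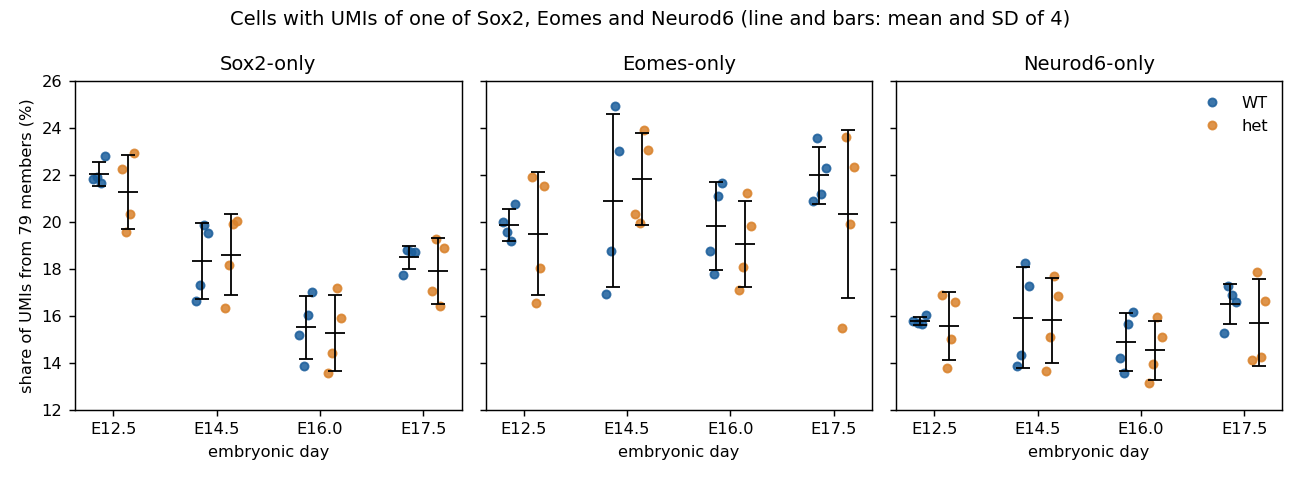
Share of UMIs from the 79 ribosomal protein genes (percent) by embryonic day in cells with UMIs of only 1 of Sox2, Eomes and Neurod6; each point is a library, lines and bars are the mean and SD of 4. Sox2-only WT cells are at their highest at E12.5 while the stage means of Neurod6-only WT cells lie between 14.9% and 16.5%, and the gap between the 2 sets is 6.27 points at E12.5 and 0.63 points at E16.0.

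Gene by gene, counts were summed per library and tested with edgeR's quasi-likelihood test over all genes, called at a Benjamini-Hochberg adjusted p below 0.05. Of the 79 genes, 77 passed the filter on low counts. Rpl10l and Rpl3l, which are known from testis and from muscle, gave 13 and 16 UMIs in all libraries and were not tested. Rpl39l, the testis paralogue of Rpl39, gave 206 UMIs and was tested with a log2 fold change of 1.18 (SE 1.05, adjusted p = 0.324), which became −0.79 without WT E17.5 M2. The next lowest gene, Rpl7l1, had 141671 UMIs. The other 76 genes thus rest on large counts. How far counting and the spread between libraries each limit their tests was not tested.

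Between E12.5 and E17.5 in WT, 55 of the 77 genes fell and none rose, when 32.8% of the 15878 genes tested were called lower and 34.5% higher. The median log2 fold change was −0.50 for the 77 genes and 0.04 for all genes. In 48 of the 77 genes all 4 E17.5 libraries lay below all 4 E12.5 libraries, and in 3 genes (Rpl15, Rpl23a and Rpl35) all lay above; over all genes tested these shares were 24.8% and 39.5%. Fold changes here use TMM scaling, which assumes that most genes do not change. With no scaling beyond total UMIs the median of all genes moved to 0.26, and 43 of the 77 genes were called lower and 1, Rpl23a, higher (25.3% of all genes lower, 42.3% higher). Library values are given as CPM, so they follow the latter scale.

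**Figure D3:**
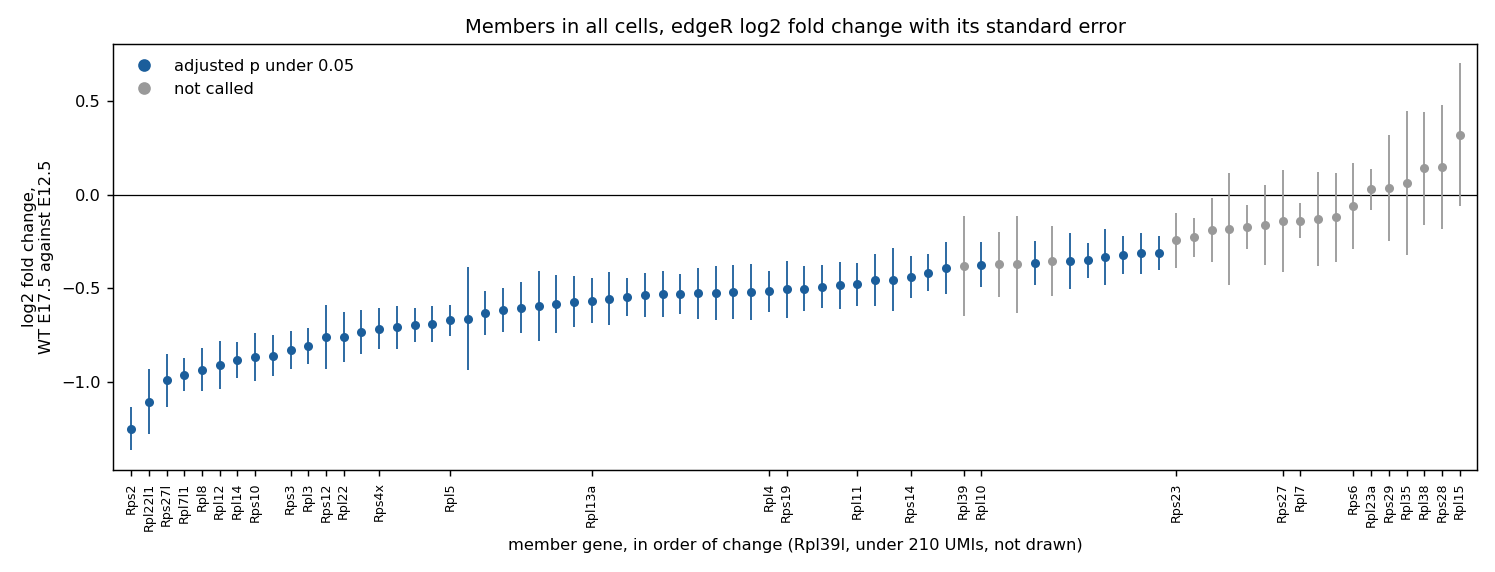
edgeR log2 fold change of WT E17.5 against WT E12.5 in all cells (vertical axis) with its standard error, for 76 ribosomal protein genes in order of change (horizontal axis, with the names of some; Rpl39l, with few UMIs, is left out). Blue points passed the test at an adjusted p below 0.05, grey points did not; Rps2 is lowest at −1.25, all 55 called genes are below 0 and the genes at the right end have the widest errors.

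Rps2 (mm10 chr17:24718116-24721929, plus strand), which encodes a small-subunit protein near the mRNA entry channel, fell most of the ribosomal protein genes tested. It gave 4539, 4767, 4604 and 5125 CPM in WT M1, M2, F1 and F2 of E12.5 and 2004, 2470, 2258 and 2537 in those of E17.5. The groups did not overlap, and the log2 fold change was −1.25 (SE 0.12, edgeR adjusted p = 1.61e-10). That is a factor of 0.42 on the TMM scale, on which the fall is larger than in the CPM values. The intermediate stages lay between, at 3075 ± 80 (SD, n = 4) and 2667 ± 299. The steps to E14.5 (−0.74, SE 0.11) and from there to E16.0 (−0.38, SE 0.11) both passed the test.

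Rpl8 (chr15:76904078-76906314, plus strand), for a core protein of the large subunit, gave 3132 to 3264 CPM in the 4 WT libraries of E12.5 and 1719, 2103, 1758 and 2155 in those of E17.5 (log2 fold change −0.93, SE 0.11, edgeR adjusted p = 3.32e-08). Its lowest values at E17.5 were those of M1 and F1, the libraries with code p. Rpl12, part of the stalk base that binds translation factors, fell by 0.91 (SE 0.13) and Rpl14 by 0.88 (SE 0.10) on the log2 scale. Rps10 fell by 0.87 (SE 0.13), and Rps3, which also lines the mRNA entry channel, by 0.83 (SE 0.10). All of these passed the test, with no overlap between the libraries of E12.5 and E17.5.

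Several genes with well-studied roles fell as well. Rpl5 and Rpl11, which carry the 5S ribosomal RNA and can bind Mdm2 to stabilise p53, fell by 0.67 (SE 0.08) and 0.48 (SE 0.12) on the log2 scale. Rps19, the gene most often mutated in Diamond-Blackfan anaemia, fell by 0.51 (SE 0.15) and Rps14 by 0.44 (SE 0.11). Rpl13a fell by 0.57 (SE 0.12) and Rpl10, which is added to the large subunit late in its assembly, by 0.37 (SE 0.12). The call was lost for Rpl10 with total UMIs as the only scaling (adjusted p = 0.162), and for Rpl10 and Rps19 without the p libraries (adjusted p = 0.106 and 0.0572). Rps6, whose protein is phosphorylated by the S6 kinases, had 1005 to 1412 CPM in E12.5 and 1230 to 1548 CPM in E17.5 libraries, with a log2 fold change of −0.06 (SE 0.23, adjusted p = 0.825) that was above 0 under total-UMI scaling.

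Some of the genes have a close paralogue, and of these paralogues Rpl22l1, Rps27l and Rpl7l1 fell. Rpl22l1 (chr3:28805436-28807424, plus strand), which can replace Rpl22 in the large subunit, gave 1481, 1902, 1596 and 1563 CPM in WT of E12.5 and 854, 884, 827 and 966 in WT of E17.5. Its log2 fold change was −1.11 (SE 0.17, edgeR adjusted p = 2e-06), and the step to E14.5 alone gave −0.97 (SE 0.17). Rpl22 itself gave 1299 to 1506 and 876 to 992 CPM (−0.76, SE 0.14). The libraries of E12.5 and E17.5 did not overlap for either gene.

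Rps27l (chr9:66946086-66949516, plus strand), a paralogue of Rps27 that p53 induces in other settings, gave 712, 734, 729 and 771 CPM in E12.5 libraries and 425, 420, 407 and 467 in E17.5 libraries (−0.99, SE 0.14, edgeR adjusted p = 4.44e-07), with no overlap. Rps27 had 3099 to 3579 CPM in E12.5 and 3095 to 3632 CPM in E17.5 libraries, which overlap (−0.14, SE 0.27, adjusted p = 0.661, and 0.07 under total-UMI scaling). Rpl7l1 (chr17:46773907-46782672, minus strand) gave 161, 180, 170 and 175 CPM and then 101, 105, 98.2 and 103 (−0.96, SE 0.09), again with no overlap. Rpl7 had a log2 fold change of −0.14 (SE 0.09, adjusted p = 0.198; 0.07 under total-UMI scaling). Differences between the partners of a pair were not tested. In the remaining pairs, Rpl3 fell by 0.81 and Rps4x by 0.72 on the log2 scale, Rpl39 had −0.38 (adjusted p = 0.208), and Rps4l was not analysed here. Over the listed paralogue pairs 7 of the 11 genes tested fell and none rose, with a median of −0.72, when 32.8% of all genes and 71.4% of the 77 ribosomal protein genes fell.

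**Figure D4:**
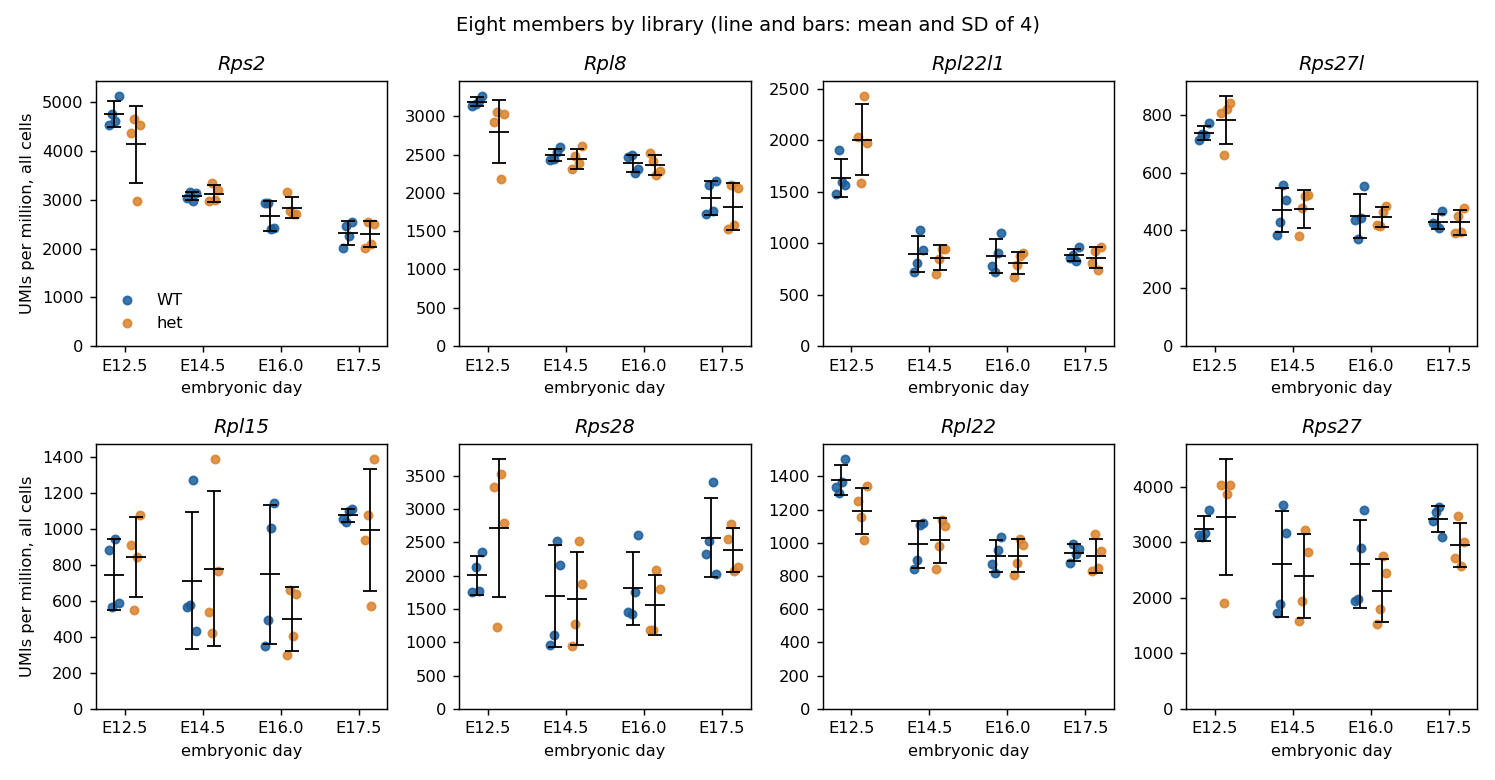
CPM (UMIs per 1000000 of all UMIs; vertical axes, from 0) for 8 ribosomal protein genes by embryonic day in WT and het libraries; points are libraries, lines and bars the mean and SD of 4. Rps2, Rpl8, Rpl22l1, Rps27l and Rpl22 are highest at E12.5, while Rps28 and Rps27 overlap between E12.5 and E17.5 in WT and Rpl15 lies at 1036 to 1111 in WT of E17.5, above the E12.5 libraries, with values from 434 to 1273 in WT of E14.5.

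At the other end, 22 genes did not pass between E12.5 and E17.5, and several of them varied strongly between libraries of 1 group. Rpl15 gave 881, 564, 944 and 589 CPM at WT E12.5, 565, 575, 1273 and 434 at E14.5 and 1052, 1036, 1096 and 1111 at E17.5 (log2 fold change 0.32, SE 0.38, adjusted p = 0.466). Rps28 gave 1762, 2126, 1773 and 2357 in E12.5 libraries and 2328, 2528, 3401.5 and 2033 in E17.5 libraries (0.15, SE 0.33), and Rpl38, known for its part in the translation of Hox mRNAs, had 0.14 (SE 0.30). Without WT E17.5 F1 the Rps28 value turned to −0.03. The coefficient of variation within WT groups had a median over genes of 4.31% in the first stage against 9.97% in the second, and reached 53.3% for Rpl15 at E14.5 and 55.9% for Rpl35 at E16.0.

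Rps28, Rpl38 and Rps27 are among the 19 members with the shortest transcripts, of at most 606 bases, as are Rps27l and Rpl22l1. These 19 genes took 23.2% to 24.9% of all ribosomal protein UMIs in the WT libraries of E12.5 and 24.1% to 27.8% at E17.5. At E14.5 their part was 19.3% to 21.02% in the rm libraries of both genotypes against 22.9% to 25.5% in the other libraries, and at E16.0 it was 20.3% to 21.6% with code c6 against 23.3% to 26.3% with code c7. The part of transcript length and code in the single-gene results was not tested. Counting can also mix members with near copies: 48 of the 79 genes share at least 98 bases, the length of the cDNA read, of their last 300 bases at 97% identity or more with another annotated gene, up to 33 genes for Rps2, none of which is counted. For 9 genes the partner is itself counted, among them Rps27 (Rps27rt), Rpl35 (Gm2000) and Rpl7l1 (Cd9 and Madd). A gene on the opposite strand overlaps 23 of the 79, and strand use in counting is not given in the sources used here. How reads of shared ends were divided is uncertain for these genes.

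With the total of the 79 genes in place of all UMIs as the library size, changes are relative to the family itself. The log2 fold changes from E12.5 to E17.5 on that scale were −0.78 for Rps2, −0.63 for Rpl22l1, −0.52 for Rps27l, −0.49 for Rpl7l1 and −0.47 for Rpl8. They were 0.78 for Rpl15, 0.62 for Rps28 and for Rpl38, 0.51 for Rps29 and 0.50 for Rpl23a. On that scale 16 genes were lower and 12 higher (14.7% of all genes lower, 49.4% higher). By subunit, the UMIs of the small-subunit genes divided by those of the large-subunit genes gave 0.82 ± 0.01 (SD, n = 4) at WT E12.5, 0.81 ± 0.03 at E14.5, 0.79 ± 0.01 at E16.0 and 0.77 ± 0.01 at E17.5. The small-subunit share went from 9.43% to 7.58% of all UMIs and the large-subunit share from 11.47% to 9.89%.

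Most calls lay in the first steps. From E12.5 to E14.5, 39 of 77 genes fell and none rose (28.3% of all genes lower, 25.5% higher), and from E14.5 to E16.0, 21 fell and none rose (6.05% lower, 5.32% higher). From E16.0 to E17.5, none fell and 2 rose (9.91% lower, 7.66% higher): Rpl23a by 0.54 (SE 0.11, adjusted p = 0.000959) and Rps23 by 0.42 (SE 0.15, adjusted p = 0.044). The middle step depended on single libraries, with 2 genes left without WT E16.0 M2, 4 without WT E14.5 F2 and 8 without WT E14.5 M2 or WT E16.0 M1. All-gene shares called lower in these 4 fits were 2.3%, 2.71%, 2.5% and 3.68%. Without the rm libraries 12 genes were called lower in the first step (20.1% of all genes lower). With both genotypes averaged, in a fit that does not join litter partners, 60 genes were lower in the first step and 59 in the second (35.9% and 17.1% of all genes lower), and in the last 21 were higher and 7 lower (22.7% higher, 19.6% lower). With total UMIs as the only scaling 26 genes were called lower in the first step and 1 in the second (22.1% and 1.43% of all genes lower).

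Rps2, Rpl22l1 and Rpl7l1 were among the 5 largest falls in the Sox2- and in the Neurod6-detected cells too. In Sox2-detected cells 49 of 76 genes fell from E12.5 to E17.5 and none rose (27.5% of all genes lower, 32% higher), with the largest falls for Rps2 (−0.98, SE 0.10), Rpl12 (−0.79), Rpl22l1 (−0.71), Rps3 (−0.69) and Rpl7l1 (−0.68). In Eomes-detected cells 15 fell and none rose (24.4% lower, 25.7% higher), a share of the genes near that of all genes. Without WT E17.5 M1, 9 were left, and the share of all genes in that fit is not given here. In cells with UMIs of Eomes but not of Sox2 or Neurod6, 2 genes were called and both were higher (9.84% of all genes higher, 8.95% lower). With total UMIs as the only scaling 9 genes were lower and 5 higher in Eomes-detected cells (17.7% of all genes lower, 31.6% higher). In Neurod6-detected cells 22 fell and 1 rose (27.9% lower, 31.6% higher), and these 22 (28.9% of the 76) are also near the share of all genes. The falls there were largest for Rpl22l1 (−0.73, SE 0.17), Rps2 (−0.73, SE 0.13), Rps27l (−0.72), Rpl8 (−0.66) and Rpl7l1 (−0.55), and Rpl23a was the gene that rose (0.30, SE 0.12, adjusted p = 0.0285). Without the p libraries 6 fell in Eomes-detected and 14 in Neurod6-detected cells (21.9% and 25.9% of all genes lower). The call of Rpl23a was lost without any 1 of WT E12.5 M1, WT E12.5 F1, WT E17.5 M2 or WT E17.5 F1 (adjusted p from 0.0505 to 0.109).

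The median log2 fold change of the 76 genes was −0.40 in Sox2-detected, −0.15 in Eomes-detected and −0.19 in Neurod6-detected cells, against 0.02 to 0.04 for all genes. The sets share libraries and cells, and their values are set side by side only. All 22 genes lower in Neurod6-detected cells were among the 49 lower in Sox2-detected cells (44.9% of those), and 14 genes were lower in every set and in all cells: Rpl3, Rpl7l1, Rpl8, Rpl9, Rpl12, Rpl14, Rpl22l1, Rpl32, Rps2, Rps3, Rps10, Rps13, Rps18 and Rps27l. These are 18.4% of the 76 genes, when 17.3% of all 12992 genes tested in the 4 fits were lower in each, so the count is near that of all genes.

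Step by step, Sox2-detected cells had falls in 29 of 76 genes to E14.5 (18.5% of all genes lower, 20.1% higher) and in 40 from E14.5 to E16.0 (4.51% lower, 5.29% higher). From E16.0 to E17.5, 20 genes rose and none fell there (12.1% of all genes higher, 9.57% lower), with Rpl23a (0.60, SE 0.10), Rps23 (0.54) and Rpl7 (0.31) among them. The counts depended on scaling and on single libraries. The second step had 20 falls with total UMIs as the only scaling (1.83% of all genes lower), 11 without WT E14.5 F2 and 13 without WT E16.0 M2 (2.29% and 2.26% lower), and the first had 8 without the rm libraries (9.57% lower). The last step had 11 rises with DESeq2 size factors (11.4% of all genes higher) and 2 to 5 without any 1 of WT E16.0 M1, WT E16.0 M2, WT E17.5 M2, WT E17.5 F1 or WT E17.5 F2 (8.32% to 11.3% higher). Eomes-detected cells had 1, 13 and 0 falls in these steps (14.8%, 2.81% and 4.28% of all genes lower) and Neurod6-detected cells 3, 9 and 0 (18.2%, 5.13% and 3.05% lower). With 1 library left out the middle step had 1 to 18 falls in Eomes-detected cells, lowest without WT E16.0 M2, and 0 to 10 in Neurod6-detected cells, with 0 without WT E14.5 F2 or WT E16.0 M2. The shares of all genes in those fits are not given here. In both sets the last step had 1 rise, that of Rpl23a (3.3% and 2.69% of all genes higher), and the steps before it none (15.4% and 3.83% higher in Eomes-detected, 20.3% and 5.96% in Neurod6-detected cells). With total UMIs as the only scaling the first step had 7 genes higher and 1 lower in Eomes-detected cells (17.2% of all genes higher, 12.2% lower) and 1 higher and 5 lower in Neurod6-detected cells (20.2% higher, 17.4% lower).

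Neurod6-only and Sox2-only cells were then compared within each WT library, with the library as a block. Of 76 genes, 61 were lower and 8 higher in Neurod6-only than in Sox2-only cells (44.6% of all genes lower, 42.2% higher), with a median of −0.23 against −0.02 for all genes. Rps27l was lowest, at −1.03 (SE 0.03, edgeR adjusted p = 1.23e-19), with 794 ± 18 CPM in Sox2-only and 426 ± 12 in Neurod6-only cells at E12.5 (SD, n = 4). At E17.5 it had 673 ± 64 and 320 ± 5.6. Rpl22l1 (−0.75), Rpl7l1 (−0.72), Rps2 (−0.65) and Rpl14 (−0.59) followed. The genes that were higher in Neurod6-only cells were so by small amounts: Rpl38 by 0.20, Rpl37 by 0.15, Rps7 by 0.13, Rpl34 by 0.10 and Rps28 by 0.07.

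The difference between the sets changed over development for 73 of the 76 genes. In these the course from E12.5 to E17.5 was higher in Neurod6-only relative to Sox2-only cells, and it was lower in none (23.3% of all genes higher, 23.9% lower; median 0.41 against 0.03). The 3 exceptions were Rps27l (−0.06, SE 0.07, adjusted p = 0.57), Rpl22l1 (0.17, adjusted p = 0.0501) and Rpl8 (0.14, adjusted p = 0.062). Rps2 changed by 0.58 (SE 0.06) and Rpl38 by 0.60 (SE 0.06). Measured against the total of the 79 genes, 11 genes were higher and 17 lower (6.56% of all genes higher, 43% lower).

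Taken stage by stage, all 76 genes were lower in Neurod6-only cells at E12.5, 63 at E14.5, 48 at E16.0 and 66 at E17.5, with median log2 differences of −0.48, −0.22, −0.05 and −0.17. Of all 13256 genes tested between the sets, 51.9%, 53.6%, 51.5% and 50.2% were lower on the same scale, log2(CPM + 1) with no further scaling. Rps27l stayed between −0.90 and −1.19 at each stage, Rpl22l1 between −0.70 and −0.83 and Rpl7l1 between −0.63 and −0.86. Rps2 went from −1.03 ± 0.10 (SD, n = 4) at E12.5 to −0.56 ± 0.14 at E17.5. Rpl38 went from −0.25 ± 0.04 at E12.5 to 0.23 ± 0.09 at E14.5, 0.49 ± 0.08 at E16.0 and 0.24 ± 0.12 at E17.5. Rpl37, Rps7 and Rpl34 were among the other genes with a mean above 0 from E14.5 on. Markers of other cells differed between the sets too: 8 of 8 excitatory neuron and 6 of 8 erythroid markers were higher in Neurod6-only cells, and 8 of 8 radial glia and 8 of 8 interneuron markers were lower. The part of erythroid and interneuron RNA, and of background detection of Neurod6 at E12.5, in the ribosomal protein values was not tested.

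**Figure D5:**
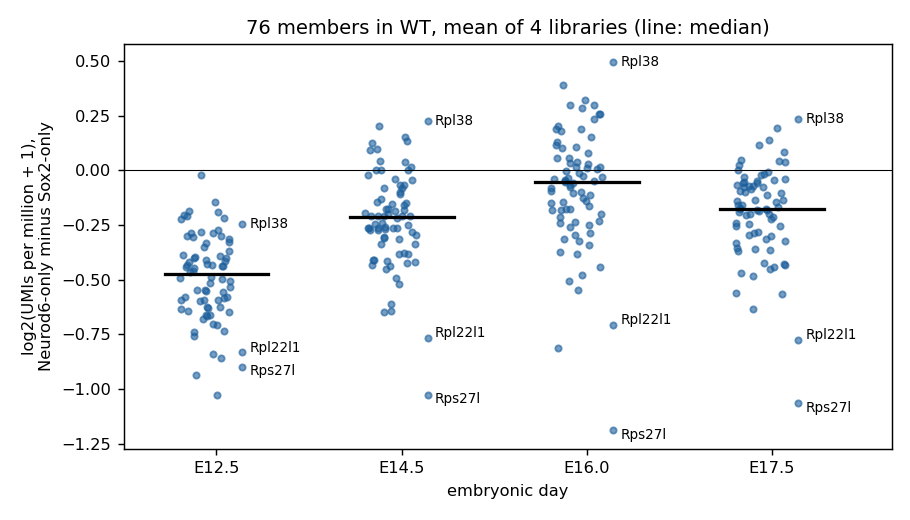
Difference of log2(CPM + 1) between Neurod6-only and Sox2-only cells of the same WT library (vertical axis; below 0 means lower in Neurod6-only cells), mean of 4 libraries, by embryonic day. Each point is 1 of 76 ribosomal protein genes and the line is their median, −0.48 at E12.5 and −0.05 at E16.0. Rps27l, Rpl22l1 and also Rpl7l1 stay low at every stage, and Rpl38 is above 0 from E14.5 on, as are Rpl37, Rps7 and Rpl34 among others.

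Other genes of the translation machinery were followed as lists, by their counts in all WT cells from E12.5 to E17.5, where 32.8% of all genes fell and 34.5% rose. These lists were chosen with earlier results of these data known. Of 8 cytosolic ribosomal protein genes with other symbols, 6 fell (median −0.64), among them Rpsa (−0.92, SE 0.14) and the stalk protein gene Rplp1 (−0.87, SE 0.16). Of 44 genes for making ribosomes, in the nucleolus or by RNA polymerase I, 40 fell and none rose (median −0.91), led by Rrs1 (−1.50, SE 0.09), Polr1e (−1.44), Brix1 (−1.41) and Gar1 (−1.27). All 10 chaperones of ribosomal proteins fell (median −0.76), Ltv1 by 1.42 and Grwd1 by 1.40 on the log2 scale. In Neurod6-only against Sox2-only cells, 37 of the 44 and 7 of the 10 were lower, and 4 and 1 were higher (44.6% of all genes lower, 42.2% higher).

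Of 28 initiation factor genes 20 fell and 2 rose (median −0.63), with Eif3b (−1.15, SE 0.08) and Eif1ax (−1.13) falling and Eif4a2 (0.83, SE 0.14) and Eif1b (0.51) rising. Of 7 elongation factor genes 4 fell and 1 rose (median −0.57). Eef1d fell by 1.96 (SE 0.13) and Eif5a by 1.42 on the log2 scale, and Eef1a2, the form that neurons and muscle switch to, rose by 1.87 (SE 0.26). Of 11 further mRNAs counted among those with a terminal oligopyrimidine motif 7 fell (median −0.61), led by Npm1 (−1.57, SE 0.07), Vim, also a radial glia marker (−1.56), and Nap1l1 (−1.19). Eef1a1 had −0.13 and did not pass. Among 16 regulators of growth upstream of ribosome production 7 rose and 5 fell (median 0.11), shares near those of all genes. There the mTOR target Eif4ebp1 (−2.34, SE 0.30) and Mycn (−0.88, SE 0.11) fell, and Tsc1, which restrains mTOR (1.51, SE 0.14), and Mycl (1.20, SE 0.17) rose. In the same list Mtor itself had means of 11.2 CPM at WT E12.5 and 13.5 at WT E17.5, and Rptor 9.57 and 17.3. The activity of mTOR was not measured.

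Between genotypes, no difference in the summed share of ribosomal protein UMIs passed after adjustment. Averaged over stages, het minus WT was −0.44 percentage points in all cells (permutation within stage, p = 0.405), with het higher in 6 of 16 pairs. It was −0.35 points in Sox2-detected, −0.62 in Eomes-detected and −0.58 in Neurod6-detected cells (permutation p = 0.447, 0.225 and 0.244), with het higher in 7, 5 and 5 of 16 pairs, and the adjusted p was 0.893 or more in all 20 comparisons. Within the litter and sex pairs (exact permutation test by sign flips) p was 0.122 in all cells, 0.194 in Sox2-detected, 0.024 in Eomes-detected and 0.0355 in Neurod6-detected cells, and 0.355 for both of the last after adjustment over the 20 comparisons. By stage the difference in all cells was −0.59 points at E12.5, −0.01 at E14.5, −0.41 at E16.0 and −0.76 at E17.5. Without the p libraries the E17.5 value was +0.22 points.

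Averaged over stages, none of the 77 genes was called between het and WT by edgeR (0.239% of all genes higher, 0.0882% lower), 6 of them at an unadjusted p below 0.05 (6.98% of all genes), and none by DESeq2 (0.498% higher, 0.246% lower). In Sox2-, Eomes- and Neurod6-detected cells none of 76 was called by edgeR either (0.304%, 0.214% and 0.199% of all genes higher, 0.232%, 0.0992% and 0.0275% lower), with 4, 8 and 5 at an unadjusted p below 0.05 (8.77%, 9.04% and 5.82% of all genes), and DESeq2 called 1, 0 and 0, the 1 being Rpl4. Among the 5 genes of lowest p were Rpl4, with a log2 fold change of −0.16 (SE 0.06, adjusted p = 0.372), Rps3a1 (−0.10), Rpl7l1 (0.10) and Rpl7a (−0.11). With the matched litter and sex pair as a block, Rpl4, an early-binding large-subunit protein, was called at −0.16 (SE 0.03, adjusted p = 0.0233; 0.731% of all genes higher and 0.686% lower in that fit). With the block it was also the 1 gene of the family called in Sox2-, Eomes- and Neurod6-detected cells (0.732%, 0.633% and 0.453% of all genes higher, 0.905%, 0.587% and 0.316% lower).

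At E12.5 the median log2 fold change of the 77 genes between het and WT was 0.00 and the SD over genes 0.24. With total UMIs as the only scaling the median was −0.08, when that of all genes was −0.11. The call depended on the treatment of the pairs. Without the block none of the 77 was called in all cells (0.195% of all genes higher, 0.0504% lower), 10 at an unadjusted p below 0.05 (15.2% of all genes). With the block 9 were lower and 2 higher (6.72% of all genes higher, 5.97% lower), and with DESeq2 3 were lower and 1 higher (3.33% higher, 0.901% lower). In Sox2-, Eomes- and Neurod6-detected cells the block gave 10, 10 and 6 lower genes (6.71%, 1.85% and 1.32% of all genes lower) and 5, 1 and 1 higher ones (8.8%, 4.29% and 3.17% higher). DESeq2 gave 4, 4 and 3 lower (1.62%, 0.412% and 0.295%) and 2, 1 and 1 higher (5.16%, 3.21% and 2.17%). In all cells the lower genes with the block included Rps12, Rpl12, Rps20, Rpl7a, Rpl4, Rps10, Rpl10 and Rpl23, and the higher ones were Rps19 and Rpl7l1.

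Rps12, which flies need for competition between cells that differ in ribosomal protein dosage, gave 2300, 1950, 2301 and 2481 CPM in the WT libraries M1, M2, F1 and F2 at E12.5 and 1396, 1771, 826 and 1574 in het. All het libraries lay below all WT libraries, with the lowest in F1, which also had the fewest UMIs per cell. The log2 fold change was −0.67 with the block (SE 0.12, edgeR adjusted p = 0.0117) and −0.62 without it (adjusted p = 0.0813). Rpl12 gave 1595, 1418, 1636 and 1697 in WT and 1107, 1306, 752 and 1240 in het (−0.47, SE 0.09, adjusted p = 0.0122 with the block). It too was lowest in het F1, and its groups did not overlap.

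Rpl7l1 went the other way, with 161, 180, 170 and 175 CPM in WT and 209, 186, 225 and 203 in het at E12.5. All het libraries lay above all WT libraries (0.34 with the block, SE 0.07, adjusted p = 0.0151; 0.35 without it, adjusted p = 0.0616). In Sox2-detected cells Rpl7l1 was called higher without the block as well (0.36, SE 0.08, adjusted p = 0.0304; 0.804% of all genes higher, 0.304% lower), and likewise in Eomes-detected cells (0.30, adjusted p = 0.0405; 0.328% higher, 0.0686% lower). With total UMIs as the only scaling Rpl7l1 had 0.27 and 0.21 in these sets and lost its call (edgeR adjusted p = 0.0839 and 0.217), and the genes called there were 3 and 2, all lower (0.196% and 0.0686% of all genes lower). It also lost its call in both sets with the total of the 79 genes as library size, with no filter on low counts, with only the E12.5 groups in the fit and in cells of 1 set (edgeR adjusted p from 0.0544 to 0.602). DESeq2 called Rpl7l1 in all cells and in each detected set (DESeq2 adjusted p from 0.00119 to 0.026). With DESeq2 size factors in edgeR, Rpl7l1 had adjusted p = 0.0419 in all, 0.024 in Sox2-, 0.0334 in Eomes- and 0.122 in Neurod6-detected cells. By E17.5 its het libraries gave 88.8 to 107 and the WT libraries 98.2 to 105 CPM. The change of the genotype difference from E12.5 to E17.5 was called for no ribosomal protein gene without the block (0% of all genes either way, 5 genes of the family at an unadjusted p below 0.05, as were 13.3% of all genes), with it for Rpl7l1 (−0.43), Rpl3 (−0.34) and Rps12 (0.60) (2.66% of all genes higher, 3.16% lower), and with DESeq2 for Rpl7l1 (−0.47; 0.0882% higher, 1.33% lower). Depth moved with genotype at this stage, and so did the part of the 19 genes with the shortest transcripts, 21.6% to 29.4% of ribosomal protein UMIs in het against 23.2% to 24.9% in WT at E12.5. The summed erythroid markers gave 13071, 14210, 9608 and 5371 CPM in WT M1, M2, F1 and F2 and 1321, 14942, 5275 and 4269 in het, lower in 3 of 4 pairs. Malat1 gave 7501, 6423, 6255 and 6847 CPM in WT and 7840, 5376, 8167 and 8015 in het, higher in 3 of 4 pairs. The part of depth, short transcripts, erythroid RNA and Malat1 in these results was not tested. At E14.5, E16.0 and E17.5 none of the 77 genes was called between het and WT in all cells, with 0, 0 and 1 at an unadjusted p below 0.05 (1.68%, 1.98% and 3.94% of all genes) and none by DESeq2 (0% of all genes called either way by edgeR). None was called in the cell sets at these stages either, where at most 0.0145% of all genes were higher and 0.00763% lower (0.00724% lower in Sox2-detected cells at E16.0).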

How the data were processed

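The authors deposited UMI count matrices of genes by cell barcode, 1 per embryo, from 10x Genomics 3′ libraries of version 2 chemistry, per the labels' protocols. STAR 2.7.9a, STARsolo, Cell Ranger and the mm10 build are named in the submitters' processing notes; the way cells were called and the use of strand are not given in the sources at hand. Counts were used as deposited, so they carry the authors' handling of reads that match several genes.

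Cells were barcodes of 1000 UMIs or more and 500 genes or more, with no more than 10% of UMIs from mitochondrial genes. Doublets were scored against simulated doublets and removed at 0.8% per 1000 cells (1.96% to 5.92% of cells per library). Of 145082 barcodes 138226 remained. Pairs of libraries shared 7 to 66 barcodes, at most 1.3% of the smaller library. Each embryo is 1 replicate. Shares of pooled UMIs were compared with two-sided permutation tests over libraries, within stage for genotype. The tests were exact, except that het minus WT averaged over stages used 100000 random resamples. Counts summed per library were tested with edgeR 4.0.16 (TMM, filterByExpr, quasi-likelihood, 32 libraries in 8 groups), with p-values adjusted by the Benjamini-Hochberg method over all genes; all gene-level adjusted p-values are from this fit unless DESeq2 1.42.0 is named. CPM is UMIs per 1000000 UMIs, with no further scaling. On simulated counts of 15878 genes for WT E17.5 against E12.5 the test recovered 6%, 52.2% and 74.2% of genes changed 1.25-, 1.5- and 2-fold, with 7 unchanged genes called. Only 66 or 67 genes were changed at each fold, drawn from genes of all levels above a low floor, and far more genes were called in the data. These rates are therefore not those of the ribosomal protein genes. R 4.3.3, Python 3.11.15, scipy 1.17.1 and blastn 2.17.0 were used.

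Named genes were the 8 members with the largest called fall and rise in all WT cells, 5 each way in the Sox2- and Neurod6-detected cells, in the set difference and relative to the members' total, the 5 of lowest p between genotypes, paralogue pairs, genes fixed by role, and at most 4 of each list each way; others named were chosen after their values were seen, and some genes that the rule names are not reported here. The members and lists were chosen with earlier results of these data known. Other lists were read as higher and lower counts of those tested between WT E12.5 and E17.5: endothelial and mural 3 and 0 of 8, cycling 0 and 1 of 2, radial glia 2 and 6 of 8, intermediate progenitor 2 and 4 of 6, excitatory neuron 5 and 1 of 8, dorsal telencephalon 4 and 3 of 8, erythroid 1 and 3 of 8, immediate early and stress 2 and 5 of 11, and RNA quality 3 and 0 of 4.

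The labels state litter- and sex-matched pairs, so stage, sex and number were taken as the pair. Deviations from the group means of paired libraries had correlations of −0.027 to 0.738 (median 0.539) over 16 pairs, 14 of them over 0.1. In 11 of the 16 the correlation was highest with the library of the same number. E16.0 M1 and M2 had 0.003 and −0.027 with their own number and up to 0.34 and 0.44 with another. E12.5 M1, at the stage where calls between genotypes depended on the block, had 0.11 with its own number and up to 0.26 with another. E17.5 M1 had 0.673 and 0.687, and E17.5 F1 0.198 and 0.209. The results with the block and with sign flips of pairs rest on the number as the pair. Gene coordinates are from GENCODE M21 (mm10), in which all 79 IDs were found, and start windows are from RefSeq on GRCm38.p6. Alternatives covered cell filters, set definitions, depth, scaling, low counts, DESeq2, the block and each library left out; leaving out the libraries coded p or rm and joining both genotypes were chosen after seeing the data.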

Additional observations from a re-analysis of the deposited data

Results flagged for a closer look

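In 2 of 70 groups of 4 libraries, 1 library stood apart from the other 3 by more than Dixon's critical value at the 95% level, when chance alone flags about 1 in 20 groups, or 3.5 of 70. The ribosomal protein share in all cells was 21.9% in WT E12.5 F2 and 20.5% to 20.7% in the other WT libraries of that stage. Rpl34, a large-subunit gene, gave 2377 CPM in WT E12.5 F2 and 2174 to 2179 CPM in the others.

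The courses of Sox2-only and Neurod6-only cells differed from each other. The share in Sox2-only cells minus that in Neurod6-only cells changed by −4.28 percentage points from WT E12.5 to WT E17.5, in an exact permutation test over libraries (p = 0.0286, the smallest possible). Gene by gene, 73 of 76 ribosomal protein genes had a different course in the 2 sets by edgeR's interaction test, each of them toward a higher course in Neurod6-only cells. Over all genes tested, higher and lower courses were called in about equal shares. With the members' total as the library size 28 members were called, in both directions. The gene calls follow the change of the share and are not separate support for it.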

How the results depend on the processing

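Differences of the share were taken between stages, genotypes, sets and cells with or without a division marker. Of these, 381 of 407 values under other settings kept direction and side of the threshold, and 417 of 456 with 1 library left out. For named genes these were 441 of 488 and 676 of 688, and for counts of called genes 82 of 116 and 207 of 224 stayed within 1.5 times. Causes of the changes were not tested unless the setting itself shows them.

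The Eomes-detected difference between E17.5 and E12.5 (0.07 points) was −0.2277 without a cell filter, −0.215 with doublets kept, −0.0019 with the other ribosomal proteins added, and −0.1861 to 0.5396 with 1 library left out. The Neurod6-detected difference was 0.3026 at 2 UMIs or more and 0.7197 in cells of 1 set. Its E14.5 minus E12.5 value (−1.06) was 0.2036 and 0.1423 under those settings, 0.0836 with cells thinned to 2000 UMIs and 0.7042 without the rm libraries. The matching Eomes-detected value (0.65) ran from −0.0623 to 1.4015 with 1 library left out. Joining both genotypes passed the threshold at −3.064 points (E14.5) and −3.5207 points (E17.5) in all cells and in Sox2-detected cells at −2.7188 points (E17.5), −2.4448 points (E14.5) and −2.8067 points (from E14.5 to E16.0), and at 2.5327 points (from E16.0 to E17.5), with litter partners counted as independent; with each pair moved together none of the 16 passed (adjusted p 0.114 or more, where 4 against 4 pairs allow no p below 0.0286 before adjustment). The change of the Sox2-only minus Neurod6-only difference lost its call without the p libraries (−4.44) and, since 4 against 3 libraries cannot pass, with 1 library left out (−4.4435 to −4.1058).

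Het minus WT at E14.5 turned sign in Sox2-detected cells without a cell filter (−0.0474), with doublets kept (−0.0337) and without the rm libraries (−0.01), in Eomes-detected cells in cells of 1 set (0.9132), and in all cells as the median over cells (0.058) or with the other ribosomal proteins added (0.0222). Without the p libraries the E17.5 values were 0.2178 in all, 0.2216 in Sox2-, 0.3334 in Eomes- and 0.2871 in Neurod6-detected cells. With 1 library left out, het minus WT ran from −1.1674 to 0.1 at E12.5 in all cells. At E14.5 it ran from −0.728 to 0.8157 in all, −0.5411 to 0.7443 in Sox2-, −1.1888 to 0.3082 in Eomes- and −0.839 to 0.6641 in Neurod6-detected cells. At E16.0 these ranges were −0.9486 to 0.1545, −0.9008 to 0.2936, −1.1262 to 0.0513 and −0.9524 to 0.1185. At E17.5 they were −1.0099 to 0.071 in Sox2- and −1.2002 to 0.0806 in Eomes-detected cells.

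For called members in all cells, E14.5 against E12.5 (39) gave 14 with the members' total as library size, 20 with no filter on low counts, 12 without the rm libraries, 60 with both genotypes and 23 to 47 with 1 library left out (23 without E14.5 M1, 25 without E14.5 M2). E16.0 against E14.5 (21) gave 1 with total UMIs, 0 with the members' total, 2 with no filter, 11 with only the groups compared, 59 with both genotypes and 2 to 18 with 1 left out. E17.5 against E16.0 (2) gave 1 with DESeq2 size factors, no filter or only the groups compared, 4 with total UMIs or without the p libraries, 8 with the members' total (3 higher, 5 lower), 28 with both genotypes and 1 to 4 with 1 left out. E17.5 against E12.5 gave 28 for 55 with the members' total in all cells and 21 for 49 in Sox2-detected cells. In Eomes-detected cells (15) it gave 29 with only the groups compared, 2 (both higher) in cells of 1 set, 6 without the p libraries, 26 with both genotypes and 9 to 18 with 1 left out. In Neurod6-detected cells (23) it gave 38, 11, 14 and 38 under the first 4 of these. The course difference between Neurod6-only and Sox2-only cells (73) gave 28 with the members' total. The share of all genes called moves with these settings too, as the Results give for several of them. These counts therefore show dependence on the processing and are not results about the members.

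With the replicate block, 1 member (Rpl4, −0.16) was called between genotypes in each of all, Sox2-, Eomes- and Neurod6-detected cells and 3 in the course difference, all from 0, and no other call of a share or named gene averaged over stages changed with the pairing. DESeq2 called 1 in Sox2-detected cells and 1 in the course difference. Without het E12.5 M2, 1 member was called in Eomes-detected cells and 1 in the course difference, where the ranges with 1 library left out were 0 to 1.

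The members' total moved every ribosomal protein gene's log2 fold change from E12.5 to E17.5 in all cells up by 0.43 to 0.48, which turned 28 of them to above 0 and says nothing of single genes. Of the named genes, those that turned had 0.0915 for Rpl10, 0.28 for Rpl34, 0.36 for Rpl37, 0.0932 for Rpl39, 0.33 for Rpl7, 0.12 for Rpl7a, 0.034 for Rps14, 0.34 for Rps27, 0.40 for Rps6 and 0.16 for Rps7. With total UMIs they were 0.0252 for Rpl34, 0.10 for Rpl37, 0.0743 for Rpl7, 0.0729 for Rps27 and 0.15 for Rps6. With both genotypes they were −0.0044 for Rpl23a, −0.0869 for Rpl38, −0.20 for Rps28 and −0.23 for Rps29, and without the p libraries −0.0067 for Rps29 and 0.10 for Rps6. With 1 library left out, Rpl23a ran from −0.0274 to 0.10, Rps28 from −0.031 to 0.30, Rps29 from −0.06 to 0.13 and Rps6 from −0.15 to 0.0023. The low-count Rpl39l, WT E17.5 against E12.5, all cells, ran from −0.79 to 1.746. Members other than Rpl10l, Rpl3l and Rpl39l had large counts.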

Other observations

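The share of ribosomal protein UMIs was higher in the deepest than in the shallowest quartile of cells in 18 of 32 libraries, with differences of −2.42 to 5.32 percentage points. Across codes, the 19 members with the shortest transcripts took 23.2% to 29.4% of ribosomal protein UMIs in libraries coded c10, 21.6% to 24.3% in c15, 19.3% to 21.02% in rm, 25.4% to 25.5% in c12_5, 22.9% to 24.1% in c24, 20.3% to 21.6% in c6, 23.3% to 26.3% in c7, 24.1% to 24.7% in c16, 25.3% to 25.8% in c17 and 25.7% to 27.8% in p.

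Rps27, a short zinc-finger protein gene of the small subunit, followed the codes at E14.5 in WT, with 1720 and 1882 CPM in the rm libraries M1 and M2 and 3669 and 3167 CPM in F1 and F2. Rps28 gave 965, 1116, 2524 and 2159 CPM in the same libraries. At E12.5 Rps28 gave 3329, 1232, 3526 and 2791 CPM in het M1, M2, F1 and F2, so that het M2, the deepest het library of that stage, lay below all WT libraries and the other 3 above them. The part of depth and code in these values was not tested.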
